A study of Mus musculus with 2 samples.

Results

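The apelin receptor gene Aplnr (ENSMUSG00000044338) and the genes of its peptide ligands, Apln (apelin, ENSMUSG00000037010) and Apela (apelin receptor early endogenous ligand, also called Elabela or Toddler, ENSMUSG00000079042), were taken by their symbols from the feature lists, 3 genes of the 27998 listed. All 3 were detected. In the RefSeq annotation of assembly GRCm38.p6, the build that mm10 stands for, Aplnr lies on chromosome 2 (85136360 to 85139923), Apln on chromosome X (48025146 to 48034853) and Apela on chromosome 8 (65028417 to 65037336).

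The apelin receptor is a G protein-coupled receptor of the cell surface that signals through inhibitory G proteins and arrestins. Apelin is best known as a ligand of sprouting blood vessels, where leading cells of the sprout make it, and the receptor is a known marker of venous and capillary endothelium. Apela is the ligand known for acting at the earliest stages of heart formation, and the receptor is also known in the mesoderm that gives rise to the heart and the pharyngeal muscles.

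Single-cell RNA profiles were collected from Swiss Webster mouse embryos at embryonic day 9.5. The pharyngeal apparatus and heart were dissected, and cells positive for GFP and negative for DAPI, a dye that enters dead cells, were sorted for droplet sequencing, in which transcripts are counted from their 3′ ends. The Ctrl embryos were Mesp1Cre;Rosa26-GFPflox/+ and the cKO embryos Mesp1Cre;Rosa26-GFPflox/+;Tbx1flox/flox. Both groups thus carried the Cre driver, which acts in early mesoderm, and the reporter that marks the cells it has acted on, and in the cKO group both copies of Tbx1, a T-box transcription factor gene of the pharynx, carried loxP sites, so that Tbx1 should be lost in this lineage only. A single pool of embryos gave the 1 library of each group, so there is no replicate check, no test between genotypes was made, and each comparison describes these 2 libraries. The study lists more somites for the embryos of the cKO pool than for those of the Ctrl pool, so stage and genotype cannot be told apart. Intervals are 95% intervals for counting error only.

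The matrices held 7418 cells (library labelled Ctrl) and 10281 cells (library labelled cKO), of which 6591 and 8969 were kept, with medians of 16854 and 14189 unique molecular identifiers (UMIs) per kept cell. The libraries shared 15 cell barcodes. Cells fell into 26 clusters, which were named from marker genes, with names ending in -like. Levels are the UMIs of a gene per 1000000 UMIs of a class or cluster (CPM). Haemoglobin transcripts, which mark RNA freed from blood cells, made up 0.111 to 21.01 CPM of the 9 named classes outside blood in the library labelled Ctrl and 156 to 189 CPM in the library labelled cKO. Tbx1 itself was at 59.2 CPM (1084 UMIs) in MLP-like cells of the library labelled Ctrl and at 120 CPM (3193 UMIs) in those of the library labelled cKO, and at 121 and 96.5 CPM in BrM-like cells. Counts of 3′ ends do not show whether a transcript carries the deletion, so they do not check the labels.

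Over all kept cells, Aplnr had 1428 UMIs (12.2 CPM) in the library labelled Ctrl and 381 UMIs (2.79 CPM) in the library labelled cKO, which is 4.36-fold lower. Apln had 260 UMIs (2.21 CPM) and 141 UMIs (1.03 CPM), and Apela 1232 UMIs (10.5 CPM) and 971 UMIs (7.11 CPM). The difference was not spread evenly. The plot of levels by cluster shows that the receptor was lower in the MLP-like, BrM-like and SoM/aSHF-like clusters and in the pSHF-like clusters other than the Osr1 cells, and close in the endothelium, and that each ligand had its highest level in other cells than the progenitors in which the receptor differed most. Among clusters with at least 10 UMIs of the gene in both libraries together, Aplnr was at least 2-fold lower in the library labelled cKO in 12 of 17 clusters, Apln in 5 of 12 and Apela in 5 of 14. Of genes with as many UMIs, 3.79 to 10.1% were that much lower in these clusters. For Aplnr the interval of the log2 ratio lay below 0 in 8 of the 12 clusters, the library labelled cKO had 0 UMIs in 3, and the interval held 0 in 1. For Apln the interval held 0 in all 5, and for Apela in 2 of 5. In the opposite direction Aplnr and Apela were at least 2-fold higher in 1 cluster each, with an interval that held 0 for Apela, and Apln in 0 clusters. The share of all genes that much higher was not computed for these clusters. In the MLP-like, SoM/aSHF-like, pSHF-like, endothelium-like and epicardium-like classes it was 0.854 to 1.68% of genes with at least 30 UMIs. The upward counts are therefore not read as a result.

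**Figure D1:**
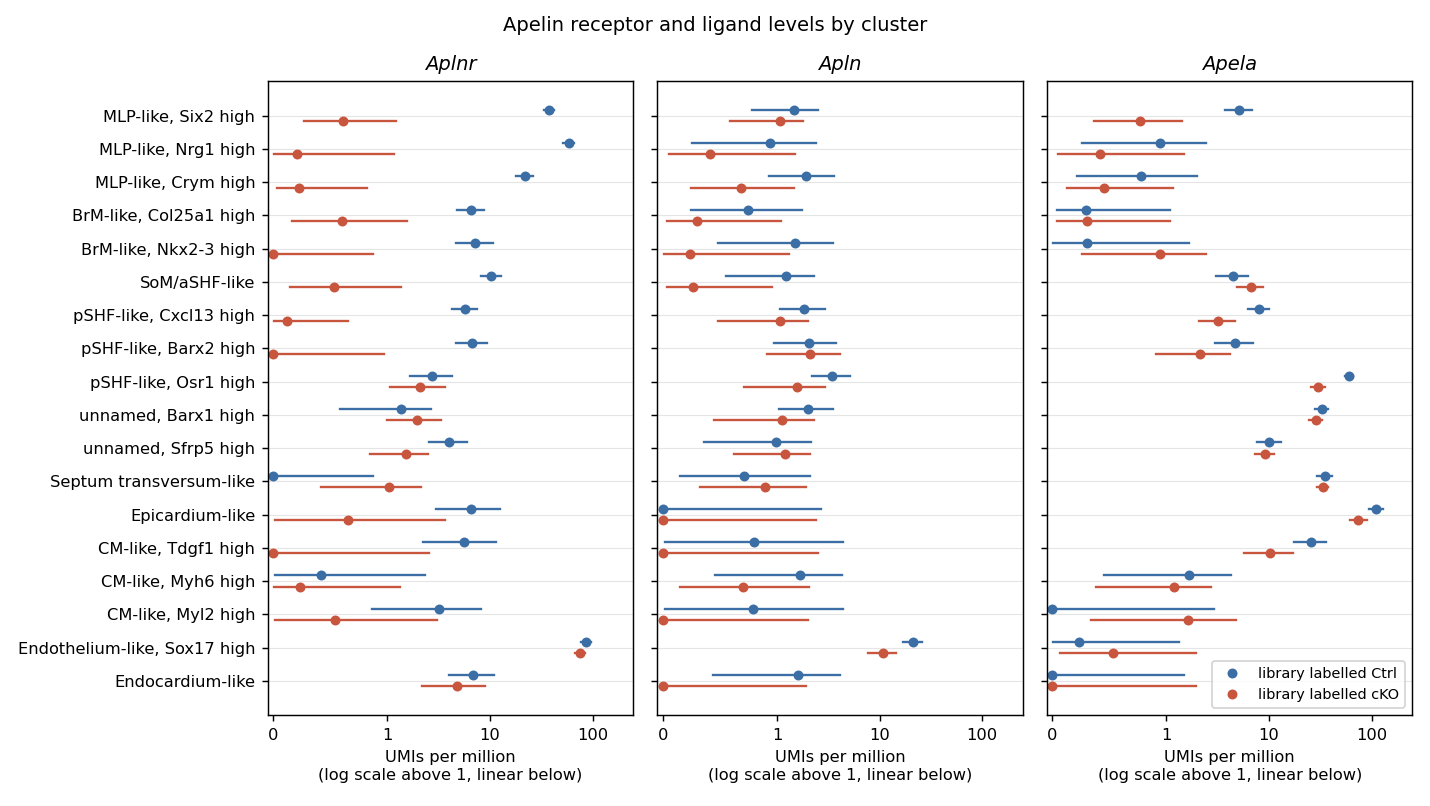
Level of each gene in CPM (horizontal axis, log scale above 1 and linear below) in 18 clusters of the mesoderm, heart and endothelium, named by class and a leading gene. Points are the summed level of a cluster in 1 library and bars its 95% Poisson interval. Aplnr stands at 21.7 to 58.4 in the 3 MLP-like clusters of the library labelled Ctrl and at 0.207 to 0.614 in those of the library labelled cKO, while in the Sox17-high endothelial cluster it stands at 86.2 and 75.7. Apln is highest in that endothelial cluster and Apela in the epicardium-like cells.

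The first comparison concerned the receptor in the multilineage primed progenitors (MLPs) of the cardiopharyngeal mesoderm. The study chose Aplnr as a marker of these cells from data of the same design. The receptor was also chosen here with earlier results of these data known. Neither a high level there nor its difference between the libraries is therefore independent evidence. In the 1121 MLP-like cells of the library labelled Ctrl, Aplnr had 694 UMIs, a level of 37.9 CPM (35.1 to 40.8). The 1787 MLP-like cells of the library labelled cKO held 11 UMIs, a level of 0.412 CPM (0.206 to 0.738). The level was 91.9-fold lower (log2 ratio −6.52, −7.53 to −5.67), and no MLP-like cell of the library labelled cKO had more than 1 Aplnr UMI. Of 12328 genes with at least 30 UMIs in these cells, 819 (6.64%) were at least 2-fold lower, their median log2 ratio was −0.16, and Aplnr ranked 4 from the lowest. The median, like that of other classes, lies below 0, and scaling by trimmed means moved log2 ratios up by 0.06 to 0.19, depending on the class.

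The deficit of the receptor was found in each of the 3 MLP-like clusters. Cells led by Prdm1, Rdh10 and Nrg1, which carried all 10 of the MLP markers, had 248 Aplnr UMIs (58.4 CPM, 51.4 to 66.2) in 340 cells of the library labelled Ctrl and 1 UMI (0.207 CPM) in 391 cells of the library labelled cKO, which gives a log2 ratio of −8.14 (−13.5 to −5.65). Aplnr had the lowest log2 ratio of 9821 genes there, where 6.97% of genes were at least 2-fold lower. Cells led by Irx1 and Six2 had 334 UMIs (37.5 CPM) in 427 cells and 8 UMIs (0.614 CPM) in 707 cells, a log2 ratio of −5.93 (−7.16 to −4.94), beside 6.13% of genes. Cells led by Crym and Tgfbi, which carried 6 of 10 MLP markers, had 112 UMIs (21.7 CPM) in 354 cells and 2 UMIs (0.227 CPM) in 689 cells, and 4.29% of genes were at least 2-fold lower there. The level in the library labelled Ctrl thus differed among the MLP-like clusters beyond their intervals, and that in the library labelled cKO did not. The clusters made up 30.3%, 38.1% and 31.6% of MLP-like cells in the library labelled Ctrl and 21.9%, 39.6% and 38.6% in the library labelled cKO.

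Counted per cell, 144 of 1110 MLP-like cells of the library labelled Ctrl (12.97%, 11.1 to 15.1) had an Aplnr UMI when every cell was thinned to 5000 UMIs, which left out 11 cells. In the library labelled cKO it was 6 of 1768 cells (0.339%, 0.125 to 0.737), with 19 cells left out. The unthinned shares were 31.8% and 0.616%. Septum transversum-like cells, chosen after it was seen that the library labelled Ctrl held no Aplnr UMI there, are given beside these. Their thinned shares were 0 of 237 cells (interval up to 1.54%) and 2 of 452 cells (0.442%, 0.0536 to 1.59), their unthinned shares 0% and 1.53%, and their median depths 16703 and 13891 UMIs, against 15017 and 13828 in MLP-like cells. Because of that choice their share in the library labelled Ctrl is no test of a background. In the library labelled cKO the share in MLP-like cells lay within their interval, which rests on 2 cells.

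Aplnr was lower across the rest of the cardiopharyngeal mesoderm as well, from lower starting levels. In SoM/aSHF-like cells, the somatic mesoderm and anterior second heart field, the level was 10.3 CPM (76 UMIs) in the library labelled Ctrl and 0.529 CPM (4 UMIs) in the library labelled cKO, for a log2 ratio of −4.28 (−6.19 to −2.86), and 4.1% of genes were at least 2-fold lower. BrM-like cells, the branchiomeric muscle progenitors, had 6.77 CPM (68 UMIs) and 0.368 CPM (4 UMIs), a log2 ratio of −4.20 (−6.12 to −2.78), beside 6.39% of genes. In pSHF-like cells, the posterior second heart field, Aplnr was at 4.95 CPM (104 UMIs) and 0.718 CPM (13 UMIs), a log2 ratio of −2.78 (−3.74 to −1.95), beside 2.42% of genes. CM-like cells, the cardiomyocytes, had 12 and 2 UMIs (2.44 and 0.265 CPM), a log2 ratio of −3.20 (−6.40 to −1.04), beside 4.68% of the genes with at least 10 UMIs there. Aplnr ranked 3 from the lowest of 10669 genes in SoM/aSHF-like cells, 6 of 11926 in pSHF-like cells and 30 of 11070 in BrM-like cells.

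The pSHF-like cells did not behave alike. Cells led by Wnt4 and Cxcl13 had 52 Aplnr UMIs (5.67 CPM) in the library labelled Ctrl and 1 UMI (0.118 CPM) in the library labelled cKO, for a log2 ratio of −5.59 (−10.9 to −3.05), the lowest of 10660 genes, of which 2.4% were at least 2-fold lower. A related cluster with Barx2 had 33 UMIs (6.72 CPM) and 0 UMIs, at least 8.50-fold lower with 3 counts as the limit that a count of 0 allows, beside 3.56% of genes. Cells with Osr1 and Wnt2, which mark the progenitors shared by the inflow tract and lung, had 19 UMIs (2.74 CPM, 1.65 to 4.27) and 12 UMIs (2.07 CPM, 1.07 to 3.61). Their levels overlapped, and the log2 ratio was −0.40 (−1.58 to 0.71). Without them the log2 ratio of the pSHF-like class was −6.21.

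The order of the receptor's levels over the named classes was, in the library labelled Ctrl, endothelium-like (56.9 CPM), MLP-like (37.9), SoM/aSHF-like (10.3), BrM-like (6.77), epicardium-like (6.53), pSHF-like (4.95), CM-like (2.44) and paraxial-like (0.774), with 0 UMIs in septum transversum-like cells. The intervals of the first 3 were apart, and those of neighbours from SoM/aSHF-like to CM-like cells overlapped. With doublets kept or at most 5% mitochondrial UMIs, BrM-like cells came before SoM/aSHF-like cells, at 15.9 and 8.24 or 15.1 and 8.04 CPM. With the first-pass clustering features kept, MLP-like cells came before endothelium-like cells, at 68.1 and 59.01 CPM. In the library labelled cKO endothelium-like cells stood at 51.7 CPM, and the other named classes outside blood lay between 0.265 and 1.04 CPM with overlapping intervals. Erythroid-like cells, found in that library only (151 cells), held 3 Aplnr UMIs, 0.758 CPM (0.156 to 2.22). The levels of those other classes lay within this interval. It rests on 3 UMIs, and haemoglobin made up 358343 CPM of the erythroid-like cells, so it cannot show whether the remaining level is a background. In paraxial-like cells with Pax1, Aplnr was higher in the library labelled cKO, with 1 and 9 UMIs and a ratio of 7.41 (log2 0.04 to 8.34), at a level (1.19 CPM) also within that interval.

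Endothelial cells differed from the progenitors. Endothelium-like cells had 382 Aplnr UMIs in 375 cells of the library labelled Ctrl (56.9 CPM, 51.3 to 62.9) and 292 UMIs in 390 cells of the library labelled cKO (51.7 CPM, 45.9 to 58.0). The log2 ratio was −0.14 (−0.36 to 0.09), so a difference was not detectable for the whole class at this depth. Among the subclusters described below, Aplnr was lower in the Pcdh17 one, which held most of it (log2 ratio −0.31, −0.57 to −0.06). In the Etv2 one the log2 ratio was −0.52 (−1.09 to 0.03). The Pcdh17 subcluster made up 113 of the 375 and 137 of the 390 cells. Aplnr ranked 5035 from the lowest of 10417 genes, near the median of −0.12. In the cluster with Sox17, Cldn5 and Emcn, which carried all 10 endothelial markers, the levels were 86.2 CPM (365 UMIs) and 75.7 CPM (283 UMIs), a log2 ratio of −0.19 (−0.42 to 0.04). The endocardium-like cluster, which carried all 6 endocardial markers against that cluster, had 17 UMIs (6.86 CPM) and 9 UMIs (4.72 CPM), with overlapping intervals. After thinning, 31.9% (25.9 to 38.3) and 30.8% (24.9 to 37.1) of the Sox17 cluster had an Aplnr UMI, and 58.7% and 58.0% without thinning.

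Apln, the ligand gene of blood vessels, was highest in the same endothelial cells. Endothelium-like cells had 94 Apln UMIs (14 CPM, 11.3 to 17.1) in the library labelled Ctrl and 40 UMIs (7.08 CPM, 5.06 to 9.64) in the library labelled cKO, which is 1.98-fold lower (log2 ratio −0.98, −1.56 to −0.44). This is just inside the 2-fold mark that 3.24% of 10417 genes passed downward, and Apln ranked 355 from the lowest. All but 4 of the UMIs of the library labelled Ctrl lay in the Sox17 cluster, with 90 UMIs (21.3 CPM) against 40 UMIs (10.7 CPM), a log2 ratio of −0.99 (−1.57 to −0.44). The endocardium-like cluster held 4 and 0. Thinned shares of positive cells in the Sox17 cluster were 8.19% (5.003 to 12.5) and 3.42% (1.49 to 6.63), and unthinned shares 19.6% and 10.3%. BrM-like cells, given for comparison and not as a test of a background, had thinned shares of 0.569% and 0.138% at medians of 18257 and 14049 UMIs.

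Outside the endothelium Apln was sparse. In the library labelled Ctrl pSHF-like cells had 51 UMIs (2.43 CPM, 1.81 to 3.19), followed by paraxial-like (1.77 CPM), MLP-like (1.48), CM-like (1.22), SoM/aSHF-like (1.21), BrM-like (0.995) and septum transversum-like cells (0.711), each overlapping with its neighbour, and epicardium-like cells had 0 UMIs. The library labelled cKO had 26 UMIs (1.44 CPM) in pSHF-like cells, and the log2 ratio was −0.76 (−1.50 to −0.05). MLP-like cells had 27 and 22 UMIs, a log2 ratio of −0.84 (−1.72 to 0.03). Paraxial-like cells had 16 and 5 UMIs, a log2 ratio of −1.75 (−3.55 to −0.23). In CM-like and septum transversum-like cells fewer than 10 UMIs were found in both libraries together, too few for a ratio.

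Apela had a different map. The highest level was in epicardium-like cells, marked by Wt1, Tbx18 and Upk3b, with 152 UMIs in 66 cells of the library labelled Ctrl (110.2 CPM, 93.4 to 129) and 113 UMIs in 94 cells of the library labelled cKO (74.2 CPM, 61.1 to 89.2). The log2 ratio was −0.57 (−0.94 to −0.21), beside a median of −0.05 over 7366 genes, and 2.21% of them were at least 2-fold lower. Among whole classes septum transversum-like cells, the mesenchyme that the liver bud invades, came next with 35.1 CPM (148 UMIs) and 33.3 CPM (224 UMIs), a log2 ratio of −0.08 (−0.38 to 0.23) and thus no detectable difference. Their thinned shares of positive cells, 14.8% and 13.9% (unthinned 35% and 29.7%), were as close. In epicardium-like cells the thinned shares were 24 of 66 and 30 of 94 cells, and the unthinned shares 69.7% and 57.4%, with overlapping intervals. Endothelium-like cells, given for comparison, had a thinned 0 of 370 cells (interval up to 0.992%, and 0.811% if 3 cells are taken as the limit that a count of 0 allows) and 1 of 378 cells, at medians of 16605 and 13946 UMIs. They held 1 and 2 Apela UMIs in these same data, so their share is no test of a background.

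In pSHF-like cells Apela was 2.10-fold lower in the library labelled cKO, with 513 UMIs (24.4 CPM, 22.3 to 26.6) against 210 UMIs (11.6 CPM, 10.1 to 13.3). The log2 ratio was −1.07 (−1.31 to −0.84), and Apela ranked 217 from the lowest of 11926 genes. Most of these UMIs lay in the cluster with Osr1 and Wnt2, where Apela was also among the 10 leading genes. There it had 417 UMIs (60.0 CPM) in 365 cells and 175 UMIs (30.2 CPM) in 374 cells, a log2 ratio of −0.99 (−1.26 to −0.74), and 24.7% and 10.8% of thinned cells were positive (48.2% and 28.3% unthinned). The cells with Wnt4 and Cxcl13 had 73 UMIs (7.96 CPM) and 27 UMIs (3.18 CPM), a log2 ratio of −1.33 (−2.02 to −0.67). The Barx2 cluster had 23 UMIs (4.69 CPM) and 8 UMIs (2.11 CPM), a log2 ratio of −1.15 (−2.52 to 0.06). In the posterior second heart field the ligand was thus lower in the cluster with Osr1 and Wnt2, where most of it lay. There the interval of the receptor's log2 ratio, from 19 and 12 UMIs, held 0. In the other pSHF-like clusters, where the receptor was lower, the ratios of the ligand were of like size.

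Apela was also present along the inflow and foregut mesenchyme. An unnamed cluster with Barx1 and Foxf1 had 194 UMIs (32.7 CPM) and 179 UMIs (28.7 CPM), a log2 ratio of −0.19 (−0.49 to 0.11). An unnamed cluster with Sfrp5 and Shox2, genes of the sinus venosus list, had 61 UMIs (10.1 CPM) and 91 UMIs (9.15 CPM), a log2 ratio of −0.14 (−0.62 to 0.35). Neither difference was detectable. CM-like cells had 36 UMIs (7.32 CPM) and 23 UMIs (3.05 CPM), a log2 ratio of −1.26 (−2.09 to −0.47), and most of them lay in the cluster with Tdgf1, with 32 UMIs (25.4 CPM) in 72 cells and 15 UMIs (10.3 CPM) in 87 cells. In the Myh6 and Myl2 clusters Apela had at most 5 UMIs per library. Under the alternatives run the log2 ratio of Apela in CM-like cells ran from −2.83 (male-typed cells) to −0.19. The latter came with classes from each cell's own marker UMIs (11 and 17 UMIs), so the size of this difference depends on the processing.

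In the progenitors Apela was low. MLP-like cells had 53 UMIs (2.90 CPM, 2.17 to 3.79) in the library labelled Ctrl and 16 UMIs (0.5998 CPM, 0.343 to 0.974) in the library labelled cKO, for a log2 ratio of −2.27 (−3.18 to −1.44) that ranked 126 from the lowest of 12328 genes. Of these, 45 and 10 UMIs lay in the cells with Irx1 and Six2. Thinned shares were 0.811% and 0.226% and unthinned shares 2.41% and 0.728%, and the thinned intervals overlapped that of endothelium-like cells. The unthinned interval (1.59 to 3.49%) and that of the level in the library labelled Ctrl lay above the endothelial ones (0.00675 to 1.48% and 0.00377 to 0.83 CPM). Because endothelium-like cells hold almost no Apela in the same data, this is no test of a background. Under other processing the level in the library labelled Ctrl ran from 0.946 CPM (first-pass clustering features kept) to 7.43 CPM (at most 5% mitochondrial UMIs). SoM/aSHF-like cells had 33 UMIs (4.45 CPM) and 50 UMIs (6.62 CPM), the one named class of the heart fields in which Apela was not lower, with a log2 ratio of 0.57 (−0.09 to 1.25) whose interval held 0. Under other clusterings this ratio took either sign. BrM-like cells had 3 and 6 UMIs.

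The plot of UMI shares by class sets the cells that held the receptor beside those that held each ligand. Endothelium-like cells held much of the receptor and of Apln, and hardly any Apela. MLP-like cells held 48.6% (46.0 to 51.2) of all Aplnr UMIs of the library labelled Ctrl and 2.89% (1.45 to 5.11) of those of the library labelled cKO, while they were 17.01% and 19.9% of the cells. Endothelium-like cells, 5.69% and 4.35% of the cells, held 26.8% (24.5 to 29.1) and 76.6% (72.1 to 80.8). For Apln they held 36.2% and 28.4%, with overlapping intervals. For Apela they held 1 of 1232 and 2 of 971 UMIs. The largest named source of Apela UMIs in the library labelled Ctrl was the pSHF-like class, with 41.6% (38.8 to 44.4). In the library labelled cKO the pSHF-like class held 21.6% (19.1 to 24.4) and the septum transversum-like class 23.1% (20.5 to 25.9), the latter having been 3.64% and 5.11% of the cells.

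**Figure D2:**
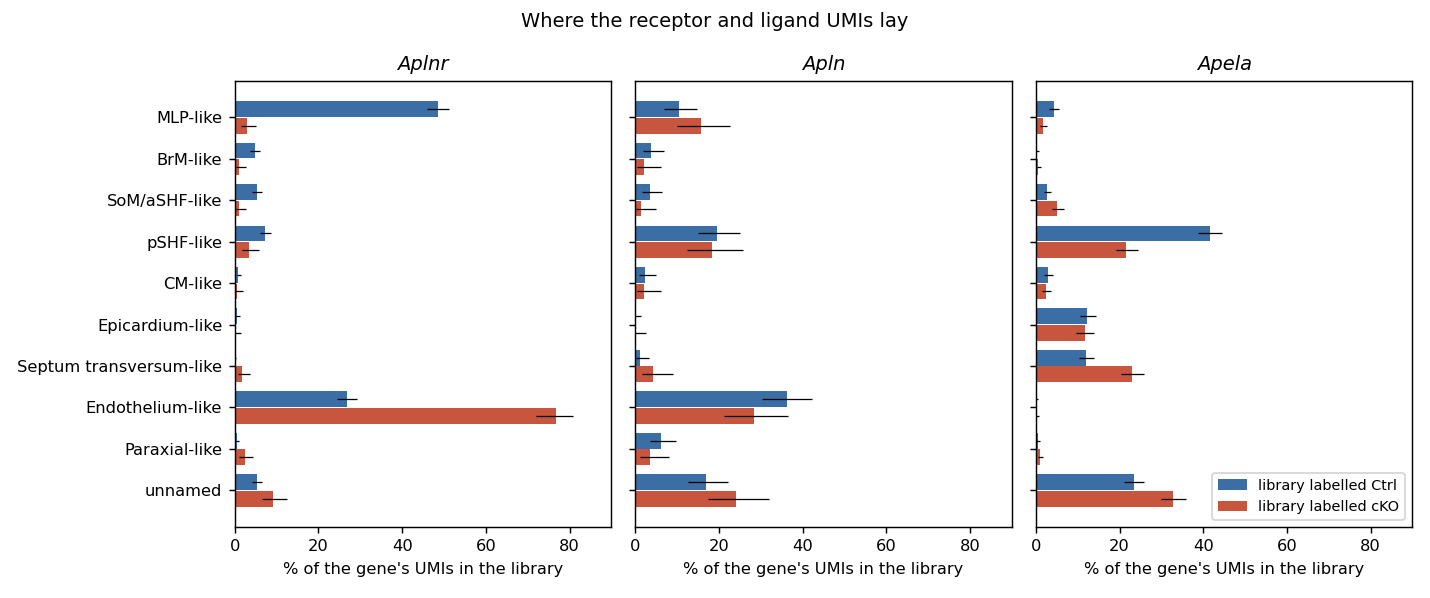
Share of each gene's UMIs (horizontal axis, percent of the gene's UMIs in a library) that lay in each class, as bars with 95% Clopper-Pearson intervals, for the library labelled Ctrl and the library labelled cKO. MLP-like cells hold 48.6% of Aplnr UMIs in the first and 2.89% in the second, and endothelium-like cells 26.8% and 76.6%. Apela UMIs lie outside the endothelium in both libraries.

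Cells with UMIs of both the receptor and a ligand were counted next. After thinning, 13 of 6520 cells of the library labelled Ctrl had UMIs of both Aplnr and Apln, and 9 of them were endothelium-like. Among the 370 endothelium-like cells thinned, 78 had Aplnr and 20 had Apln. In the library labelled cKO all 6 such cells of 8869 were endothelium-like, where 74 of 378 cells had Aplnr and 8 had Apln. Without thinning, 62 and 24 cells held both, of which 43 and 24 were endothelium-like. Aplnr and Apela met in 2 of 6520 and 1 of 8869 thinned cells, where 309 and 100 cells had the receptor and 268 and 270 had Apela. If the genes were independent over all cells, 12.7 and 3.04 cells would hold both. For Aplnr with Apln that number is 2.70 and 0.507. The classes differ in all 3 genes, and departure from these numbers was not tested. Without thinning Aplnr and Apela met in 39 and 12 cells, of which 18 and 5 were pSHF-like and 10 and 0 MLP-like. These counts depend on depth, and a cell without a UMI may still express a gene.

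Within the endothelium the receptor and Apln shared 1 state. The endothelium-like cells were clustered again without the 3 genes, which gave 6 subclusters. The subcluster led by Pcdh17, Kcne3 and Tcf15 had 287 Aplnr UMIs (140 CPM) in 113 cells of the library labelled Ctrl and 234 UMIs (112 CPM) in 137 cells of the library labelled cKO, for a log2 ratio of −0.31 (−0.57 to −0.06). Without thinning, 86.7% and 83.2% of its cells had an Aplnr UMI, and with thinning 52.7% and 43.0%. It also held 80 of the 94 endothelial Apln UMIs (38.9 CPM) and all 40 (19.2 CPM), a log2 ratio of −1.02 (−1.60 to −0.45). The 9 and 6 thinned endothelial cells with both genes all lay there. If the genes were independent within this subcluster, 7.90 and 3.44 cells would hold both, so these counts show no pairing beyond the subcluster.

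A second subcluster, led by Hopx and Etv2, an early factor of the endothelial lineage, had 79 Aplnr UMIs (44.5 CPM) in 100 cells and 44 UMIs (31.0 CPM) in 87 cells, a log2 ratio of −0.52 (−1.09 to 0.03). Its Apln counts were 7 and 0 UMIs. Both endocardial subclusters, led by Sox9 and Tbx20 and by Irx5 and Npr3, had at most 11 Aplnr and 3 Apln UMIs per library. The small subcluster with the arterial connexins Gja5 and Gja4 had 1 Aplnr UMI in 16 cells (6.07 CPM, 0.154 to 33.8) and 5 in 15 cells (52.8 CPM, 17.1 to 123), with 3 and 0 Apln UMIs, too few to place it in the order, and 14 cells with the macrophage genes Fcer1g and Tyrobp had none of the 3 genes.

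The Pcdh17 and Etv2 subclusters had the highest summed level of 5 venous genes (Nr2f2, Nrp2, Ephb4, Flrt2 and Slc38a5). The sum was 604 and 391 CPM in the Pcdh17 subcluster and 609.5 and 663 CPM in the Etv2 subcluster, for the libraries labelled Ctrl and cKO, against 91.1 to 210 CPM in the Gja5, Sox9 and Npr3 subclusters. Slc38a5 was at 0 in the whole Sox17 cluster. The 8 arterial genes summed to 2787 and 2765 CPM in the Gja5 subcluster. In the Pcdh17 subcluster they summed to 410 and 280 CPM and in the Etv2 subcluster to 684 and 292 CPM. The 6 tip cell genes summed to 67.6 and 48.0 CPM in the Pcdh17 subcluster and were highest in the Gja5 subcluster, at 267 and 264 CPM. Apln did not follow the venous sum, being at 7 and 0 UMIs in the Etv2 subcluster. In the Pcdh17 subcluster the venous and arterial sums were lower in the library labelled cKO, as Apln was, and their part in its level was not tested.

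**Figure D3:**
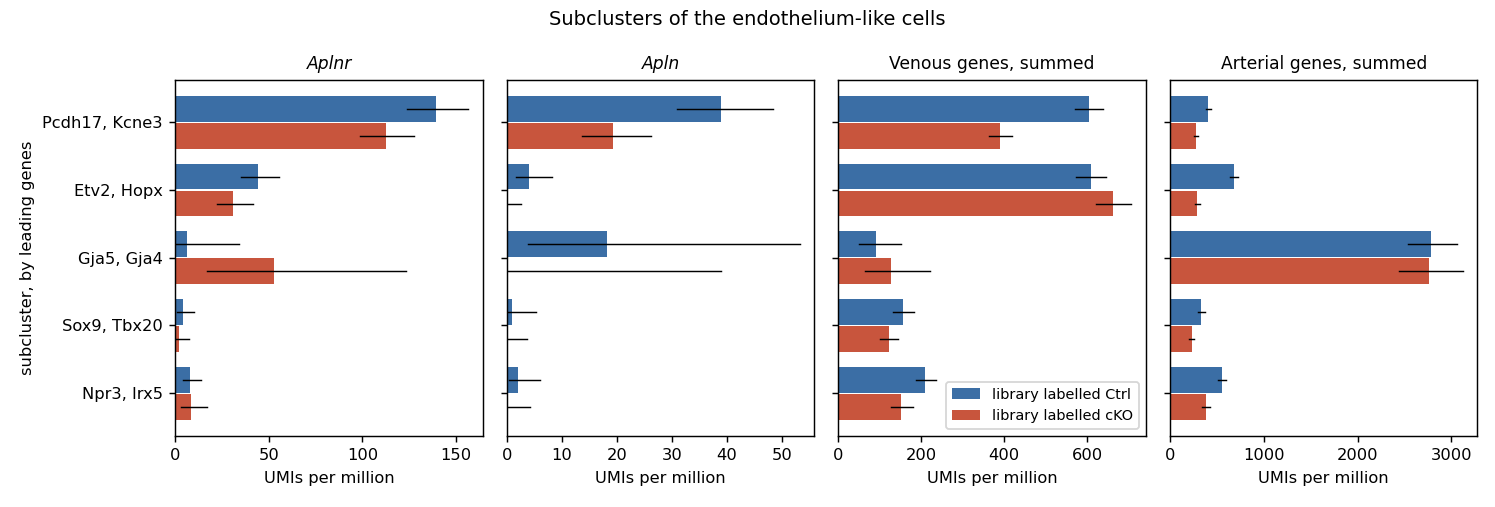
Levels in CPM (horizontal axes, linear) of Aplnr, Apln and the summed venous and arterial genes in 5 subclusters of the endothelium-like cells, named by leading genes, with 95% Poisson intervals. Bars are the library labelled Ctrl and the library labelled cKO. Aplnr and Apln peak in the Pcdh17, Kcne3 subcluster, at 140 and 112 and at 38.9 and 19.2, and the arterial genes peak in the Gja5, Gja4 subcluster, whose Aplnr and Apln bars rest on at most 5 UMIs.

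Because each library was pooled from embryos of both sexes, cells could be typed by Xist and Y-linked UMIs, and a female-typed and a male-typed cell come from different embryos. The receptor's deficit in MLP-like cells was found in both sets. Female-typed cells went from 51.5 CPM (432 UMIs) to 0.494 CPM (7 UMIs), a log2 ratio of −6.71 (−8.03 to −5.65), and male-typed cells from 27.6 CPM (229 UMIs) to 0.350 CPM (3 UMIs), a log2 ratio of −6.31 (−8.59 to −4.74). Within the library labelled Ctrl the receptor therefore differed between the sets (46.8 to 56.6 and 24.2 to 31.5 CPM). Sex and embryo cannot be told apart.

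Smaller differences between the libraries were less uniform over these sets, as the plot of ratios by typed cells shows. Apln in endothelium-like cells had log2 ratios of −1.49 (−2.37 to −0.68) in female-typed and −0.47 (−1.36 to 0.37) in male-typed cells. Aplnr there had −0.45 (−0.77 to −0.12) and 0.07 (−0.28 to 0.41). Apela in pSHF-like cells was lower in both, with −1.28 (−1.67 to −0.90) and −0.96 (−1.30 to −0.63). In epicardium-like cells it had 0.10 (−0.45 to 0.65) and −0.87 (−1.42 to −0.34), so that its lower level there rested on the male-typed cells. In CM-like cells it had −0.35 (−1.57 to 0.92) and −2.83 (−4.82 to −1.29). The differences between the sets were not tested.

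**Figure D4:**
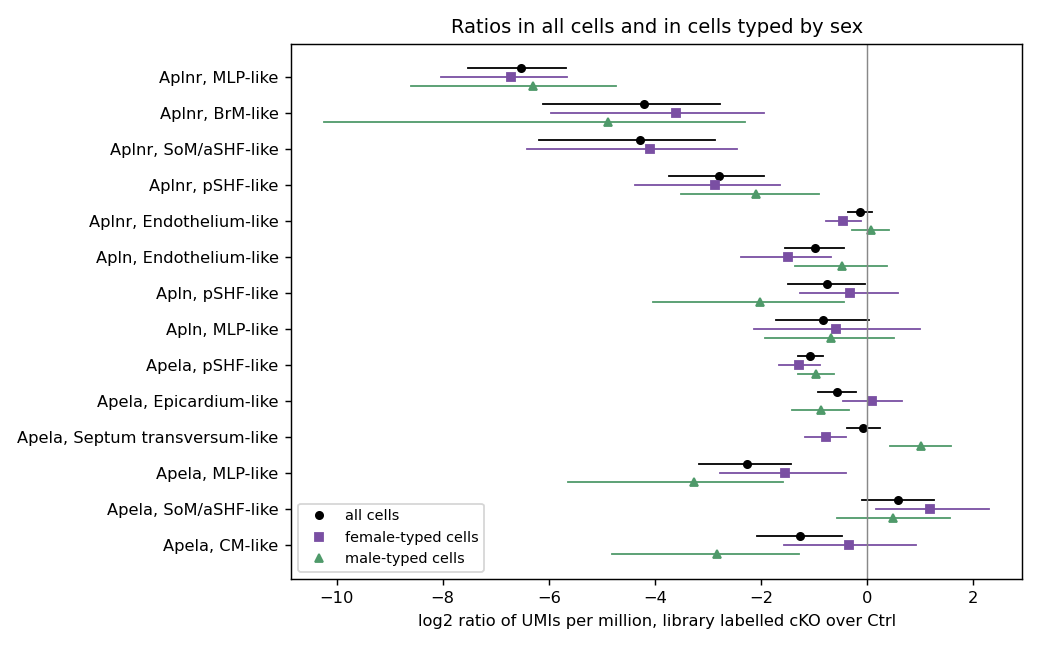
Log2 ratio of the level in the library labelled cKO over that in the library labelled Ctrl (horizontal axis) for each gene in the classes that hold it, in all cells, female-typed cells and male-typed cells, with 95% exact conditional intervals. The grey line marks equal levels, and no ratio is drawn for male-typed SoM/aSHF-like cells, where Aplnr had 23 and 0 UMIs. Aplnr lies far below 0 in the progenitors in both sets, and Apela in septum transversum-like cells lies at −0.78 in female-typed and 1.005 in male-typed cells.

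Other genes of the apelin pathway were read from a list of 36, covering enzymes that cut the precursors, enzymes that break the peptides down, G protein subunits, arrestins and receptor kinases, downstream genes, related receptors and oxygen response genes. In MLP-like cells 34 had enough UMIs, 6 were at least 2-fold lower in the library labelled cKO, beside 6.64% of all genes, and 0 were at least 2-fold higher, beside 1.68%. The median log2 ratio of the list was −0.40, beside −0.16 for all genes. Among precursor enzymes Pcsk6, a proprotein convertase, stood at 23.4 and 2.17 CPM (log2 ratio −3.43, −3.85 to −3.03), while Furin, the widely expressed convertase, had −0.41 and Pcsk7 −0.07. Mme, which encodes neprilysin, a peptidase that degrades apelin, had a log2 ratio of −1.22.

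Among downstream genes in MLP-like cells, Mef2c, a heart transcription factor, stood at 125 and 41.3 CPM (−1.59), and Klf4 and Mef2d had log2 ratios of −2.003 and −1.18. Vegfa, the vascular growth factor of the oxygen response group, stood at 42.4 and 9.93 CPM (−2.10). None of the 5 G protein subunits passed the 2-fold mark. The inhibitory subunit genes Gnai2 and Gnai3 stood at 237 and 268 CPM and at 160 and 158 CPM, and Gnai1 had a log2 ratio of 0.22. Gnaq (72.1 and 47.9 CPM, log2 ratio −0.59, −0.70 to −0.48) and Gna13 (40.4 and 23.2 CPM, −0.80, −0.95 to −0.64) were lower. They were lower to a like degree in pSHF-like, endothelium-like, epicardium-like and SoM/aSHF-like cells, at −0.68 to −0.58 for Gnaq and −0.88 to −0.64 for Gna13. The 6 arrestins and receptor kinases ranged from −0.92 to 0.66, and the related angiotensin receptor Agtr1a had 15 and 29 UMIs.

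In the cells that kept the receptor, 31 pathway genes could be read. In endothelium-like cells 4 were at least 2-fold lower, beside 3.24% of all genes, and 0 were higher, beside 0.854%. These were Pcsk6 (5.96 and 1.42 CPM), Hdac4 (log2 ratio −1.15), Vegfa (−1.03) and Mef2d (−1.02). Hdac4 and Mef2d encode a histone deacetylase and a factor it binds, known as steps after the receptor in endothelium, and Klf2 is known to follow them. In the Sox17 cluster Klf2 stood at 154 and 113 CPM (log2 ratio −0.44, −0.62 to −0.26), and in the endocardium-like cluster at 352.5 and 509 CPM (0.53, 0.40 to 0.66). In pSHF-like cells 1 of 33 genes was at least 2-fold lower (Vegfa, −1.10, beside 2.42% of all genes) and 1 higher (Klf2, 9 and 21 UMIs, beside 1.06% of all genes). In SoM/aSHF-like cells 3 of 30 were lower, beside 4.1% of all genes, Klf4 (−1.95), Vegfa (−1.81) and Pcsk6 (−1.35), and Klf2 was higher (9 and 28 UMIs), beside 1.12% of all genes. Of 19 genes in epicardium-like cells 0 passed in either direction (1.55% of all genes upward). Vegfa was at least 2-fold lower in each of the other 4 classes.

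Likeness over clusters gave a further description. Pearson's r of log2(CPM + 1) was computed over 24 clusters of the library labelled Ctrl and 25 of the library labelled cKO with at least 50 cells, for 10472 genes. Closest to Aplnr by the mean of both were Cldn5, the endothelial claudin (r of 0.51 and 0.915), Clec1b, Exoc3l4, Sox17 and Abhd17a. For Apln they were Kcne3 (0.78 and 0.83), Coro1a, Tmem255a, Cyyr1 and Swap70, and for Apela Bicd1 (0.80 and 0.84), Rbbp7, Fam84b, Myrf and Dsg2. Aplnr and Apln had r of 0.39 and 0.70, and Aplnr and Apela −0.21 and −0.04. The clusters of a library share its depth and free RNA, so these values carry no test.

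The genes of the fixed marker lists with the largest differences in the same classes set the scale for those above. In all 5 classes read they were led by haemoglobin genes, in MLP-like cells Hba-x with 1 UMI in the library labelled Ctrl and 1366 in the library labelled cKO. Beside these, MLP-like cells had lower Cdh1 (44 and 1 UMIs) and higher Dlx2 (3 and 105 UMIs) and Neurod1 (3 and 91 UMIs), genes of epithelium, neural crest and neurons. In pSHF-like cells Myh6 (8 and 27 UMIs) and Ttn (10.9 and 32.4 CPM), both muscle genes, were higher. Endothelium-like cells had higher Meox1 (1.34 and 6.37 CPM) and lower Tlx1 (5.96 and 1.95 CPM). Epicardium-like cells had higher Upk1b, Lhx2 and Actc1 and lower Nrp2 (91.4 and 34.8 CPM). SoM/aSHF-like cells had lower Kdr (11.47 and 1.59 CPM) and Fgf10 (15.9 and 3.84 CPM) and higher Plvap (1.35 and 6.62 CPM). Their part in the levels of the receptor and ligands was not tested.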

How the data were processed

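The authors aligned the reads to mm10 with Cell Ranger 3.1.0 and deposited, for each library, a matrix of raw UMI counts per gene and called cell. Cells with at least 1000 genes and at most 10% mitochondrial UMIs were kept. Doublet scores came from Scrublet in scanpy 1.11.5, and the highest 0.8% per 1000 deposited cells were removed, which is a presumed and not a measured rate. Cells were integrated by reciprocal principal components and clustered in Seurat 5.3.0 (R 4.3.3, Matrix 1.6.5) with 2000 features, 30 components and resolution 1. The receptor and ligand genes, the pathway genes and the haemoglobin, mitochondrial, ribosomal and sex-linked genes, 175 in all, were never features, and genes differing at least 2-fold between the libraries (1088) were left out in a second pass. A cluster was named where over 50% of a marker list, at least 3 genes, and 1 of its 10 leading genes passed (at least 10% of cells, log2 of at least 0.5 after adding 5 CPM) and no other list had more genes among the leading 10. The cluster with Sfrp5 and Shox2 stayed unnamed because it passed 5 of 6 septum transversum markers but had more sinus venosus genes among its leading genes. Endothelium-like cells were clustered again with 1000 features, 15 components and resolution 0.5.

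From the deposited counts, UMIs were summed per library and class, with exact Poisson intervals for levels, exact conditional intervals for ratios (at least 10 UMIs in both libraries together) and Clopper-Pearson intervals for shares (Python 3.11.15, numpy 2.4.6, scipy 1.17.1; figures with matplotlib 3.10.9). Levels in CPM are not adjusted for gene length, so levels are not compared between genes. Genes with at least 30 UMIs in a class were called at a 2-fold difference. Named genes were the receptor and ligands, for each class the 6 marker or pathway genes with the largest differences of at least 2-fold, and for each member the 5 genes most like it over clusters among those with at least 300 UMIs per library. The members and all gene lists were chosen with earlier results of these data known. Cells are not replicates, and with 1 library per group no p-value was computed. Scaling by trimmed means used edgeR 4.0.16. The scripts were tested on simulated data. Other libraries of the study were not analysed here, and the gene annotation used for counting is not given in the sources used here.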

Additional observations from a re-analysis of the deposited data

Results flagged for a closer look

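Apela in septum transversum-like cells went opposite ways in cells typed by sex, which come from different embryos. Female-typed cells had 103 UMIs (47.2 CPM) in 125 cells of the library labelled Ctrl and 127 UMIs (27.4 CPM) in 319 cells of the library labelled cKO, for a log2 ratio of −0.78 (−1.17 to −0.39). Male-typed cells had 42 UMIs (25.3 CPM) in 95 cells and 73 UMIs (50.9 CPM) in 94 cells, a log2 ratio of 1.005 (0.44 to 1.59). The difference between the sets was not tested, since sex and embryo cannot be told apart and each group had 1 library, and the close levels of the whole class are an average over these sets.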

How the results depend on the processing

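No paired analysis was possible because each group had 1 library. The 14 log2 ratios were recomputed under up to 14 alternatives each, and 181 of 188 values kept the direction. The lower Aplnr in the cardiopharyngeal classes kept it under every alternative run, with log2 ratios of −7.59 to −6.17 (MLP-like), −5.54 to −3.61 (BrM-like), −4.85 to −2.79 (SoM/aSHF-like) and −6.21 to −1.90 (pSHF-like). So did Apln in endothelium-like cells (−1.49 to −0.47) and Apela in pSHF-like cells (−1.28 to −0.96). Aplnr in endothelium-like cells (−0.45 to 0.07) and Apela in epicardium-like (−0.87 to 0.10), septum transversum-like (−0.78 to 1.005) and SoM/aSHF-like cells (−0.21 to 1.85) took both signs, and the cause was not tested.

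Values that moved are given here as Ctrl and cKO levels in CPM or as log2 ratios. With doublets kept, Aplnr in MLP-like cells stood at 32.4 (Ctrl) and in endothelium-like cells at 44.6 (cKO), and Apela in SoM/aSHF-like cells had a ratio of 1.498. Aplnr in BrM-like cells went from 6.77 to 15.9 (Ctrl) with doublets kept and to 15.1 at 5% mitochondrial UMIs. Apela in MLP-like cells, 2.90 (Ctrl) as reported, stood between 0.946 with the first-pass features and 7.43 at 5% mitochondrial UMIs. At resolution 1.5, without integration, with the first-pass features and at 5% mitochondrial UMIs, Aplnr in MLP-like cells stood at 50.2, 42.7, 68.1 and 47.6 (Ctrl) and Apela in SoM/aSHF-like cells had −0.21, 1.43, 1.66 and 1.85. The first-pass features also gave Aplnr in endothelium-like cells 59.01 (Ctrl), below MLP-like cells, Aplnr in MLP-like cells −7.59 and Apela in septum transversum-like cells 42.5 (Ctrl). With classes from each cell's own marker UMIs, Aplnr stood at 61.2 (Ctrl) in MLP-like cells and at 67.4 and 66.5 in endothelium-like cells, with a ratio of −1.90 in pSHF-like cells. Apela then stood at 21.1 and 9.91 in pSHF-like, 60.1 and 56.0 in epicardium-like (−0.10) and 22.95 (Ctrl) in septum transversum-like cells (0.39), with ratios of −3.37 (MLP-like), −0.10 (SoM/aSHF-like) and −0.19 (CM-like). The mean over cells put Aplnr in endothelium-like cells at 64.5 (Ctrl).

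In female-typed cells Aplnr stood at 51.5 (Ctrl) in MLP-like and 66.9 (Ctrl) in endothelium-like cells (−0.45), Apln at 17.6 (Ctrl) there, and Apela at 21.1 and 8.70 in pSHF-like, 88.2 and 94.4 in epicardium-like (0.10) and 47.2 and 27.4 in septum transversum-like cells (−0.78), with −0.35 in CM-like cells. In male-typed cells the values were 27.6 and 50.9 for Aplnr, −2.79 in SoM/aSHF-like cells as a bound from 3 counts, 11 for Apln with −2.02 in pSHF-like cells, and for Apela 29.2 and 15.01, 129 (Ctrl), and 25.3 and 50.9 (1.005), with −3.27 in MLP-like and −2.83 in CM-like cells. Alternatives chosen after seeing the data left out the Crym cluster (Aplnr in MLP-like cells 44.3, Ctrl) and the Osr1 cluster (Aplnr in pSHF-like cells −6.21, Apela 6.82 and 2.85). Leaving out shared barcodes, haemoglobin or the endothelium-like cells with Fcer1g moved no value beyond its interval.

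For shares of positive cells, requiring 2 UMIs changed log2 ratios from −5.26 to −3.84 (a bound) for Aplnr in MLP-like cells, from −0.19 to −1.65 for Apela in epicardium-like cells and from −0.08 to −1.08 in septum transversum-like cells, and thinning to 3000 UMIs gave −1.30 in epicardium-like cells. For Aplnr in pSHF-like cells the share's log2 ratio was −4.62 at 5000 UMIs, −2.44 without thinning and −2.42 at 3000 UMIs, and requiring 2 UMIs left no fold. With at least 100 UMIs, pathway genes lower in SoM/aSHF-like cells went from 3 to 1, and those higher there and in pSHF-like cells from 1 to 0, fewer genes being tested. Epicardium-like cells were not found at resolution 0.6 or without integration. Of the 5 genes most like each member, 2 (Aplnr), 1 (Apln) and 4 (Apela) remained at 1000 UMIs. Classes of under 100 cells and genes of under 50 UMIs have wide intervals.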

Other observations

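In the endothelial cells that held most of the receptor, Tbx1 had 29 UMIs (14.1 CPM) in the Pcdh17 subcluster of the library labelled Ctrl and 12 UMIs (5.77 CPM) in that of the library labelled cKO, for a log2 ratio of −1.29 (−2.40 to −0.28). In the Etv2 subcluster it had 20 and 16 UMIs (11.3 and 11.3 CPM), and both endocardial subclusters had 1 UMI per library. Among paraxial-like cells with Pax1, where Aplnr had 1 and 9 UMIs, Tbx1 had 70 UMIs (11.2 CPM) and 633 UMIs (83.6 CPM).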
